A study of Mus musculus with 6 samples.

Results

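Primary (azurophil) granule genes of neutrophils were followed in mouse bone marrow cells transformed by MLL-AF9, with or without the gene Mn1. The group comprised 9 genes, Elane, Prtn3, Ctsg, Mpo, Prss57, Cst7, Nkg7, Serpinb1a and Ms4a3, and its members were all probe sets whose platform annotation named 1 of these genes and no other. This gave 9 of the 45101 probe sets on the array, for 8 of the 9 genes. Serpinb1a had 2 probe sets, each of the other measured genes had 1, and no probe set naming Prss57 was found, so that gene was not analysed here. All 9 probe sets lay far above the filter for dim probe sets in both groups and entered the test.

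The 2 groups were MLL-AF9/Mn1wt and MLL-AF9/Mn1null, with 3 arrays each. All cells carried the leukaemia fusion oncogene MLL-AF9 and a control vector for the green fluorescent protein EGFP, and both grew with interleukin 3, interleukin 6 and stem cell factor. They differed in Mn1, a gene for a transcriptional cofactor, which was intact in Mn1wt and deleted with CRISPR-Cas9 in Mn1null, and the comparison asks which transcripts differ without it. The sources used here do not give mouse strain, age, the marker used for sorting or the number of clones or animals behind each group, so a p-value reflects the spread among these arrays, possibly technical only.

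Primary granules are the first granules that a neutrophil precursor makes, at the promyelocyte stage, and their proteins are made mainly in that window and then stored. They hold serine proteases and myeloperoxidase, which attack engulfed microbes. The proteases are made as inactive precursors, cathepsin C trims them to the active form, and the proteoglycan serglycin holds them inside the granule. Cytosolic and granule inhibitors limit damage when the proteases leak. High levels of these transcripts are a textbook feature of promyelocytes and of many myeloid leukaemia cells.

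Elane and Prtn3 are neighbours with no protein-coding gene between them in the RefSeq gene order (assembly GRCm38.p6), and 4 protein-coding genes separate Prtn3 from Prss57. RefSeq promoter sequences were found for 7 of the 9 genes, all but Prss57 and Serpinb1a. The last 120 bases before the start site are shown for the neighbours Elane and Prtn3, whose results differed, and for Cst7 and Nkg7, which had the largest differences. Capitals mark AGGAAGT, a form of the binding motif of ETS factors such as PU.1, and CAACGG, a form of the MYB motif.
Elane, chr10:79886192-79886311, + strand: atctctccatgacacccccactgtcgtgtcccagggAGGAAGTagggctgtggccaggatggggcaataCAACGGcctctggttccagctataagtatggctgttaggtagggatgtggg
Prtn3, chr10:79879547-79879666, + strand: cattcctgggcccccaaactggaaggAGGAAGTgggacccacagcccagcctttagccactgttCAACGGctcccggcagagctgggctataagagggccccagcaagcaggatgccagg
Cst7, chr2:150570295-150570414, + strand: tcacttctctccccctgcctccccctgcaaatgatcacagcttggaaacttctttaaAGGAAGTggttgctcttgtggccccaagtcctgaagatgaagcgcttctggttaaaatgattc
Nkg7, chr7:43437018-43437137, + strand: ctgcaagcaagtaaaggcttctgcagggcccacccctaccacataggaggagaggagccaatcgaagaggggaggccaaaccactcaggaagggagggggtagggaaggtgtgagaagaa

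In the 250 bases before the start, searched on both strands, AGGAAGT was present in 5 of the 7 promoters (Elane, Prtn3, Ctsg, Mpo and Cst7) and in 7.69% of all 32851 promoters in the table. CAACGG was present in 2 of 7, those of Elane and Prtn3, and in 4.05% of all. Both stood together in these 2 promoters and in 0.298% of all. In Elane AGGAAGT lay 84 to 78 bases and CAACGG 51 to 46 bases before the start, and in Prtn3 they lay 94 to 88 and 56 to 51 bases before it. TATAA, searched on the gene's strand, began 31 bases before the start in Elane and 32 in Prtn3. It was present anywhere in the 250 bases in 16% of all promoters. In a short window around that position it was present in 599 of 16560 promoters of + strand genes and 556 of 16291 of - strand genes. The RUNX form ACCNCA was found in Ctsg, Cst7 and Nkg7 (40.1% of all), and the C/EBP form TTNNGCAA in 0 of 7 (9.56% of all). These 5 forms were chosen after the sequences had been seen, no one of them overlapped another in Elane or Prtn3, and a match describes letters only.

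Expression was read on Affymetrix mouse arrays as log2 RMA values, a scale on which 1 unit is a 2-fold difference. Differences are given as Mn1null minus Mn1wt, and "rose" or "fell" means an adjusted p under 0.05 in limma's moderated test over 31526 probe sets. Of these probe sets 13101 (41.6%) passed, 19.3% higher and 22.2% lower in Mn1null, so nearly every gene group holds members that passed. Correlations over these probe sets were 0.997 to 0.998 within a group and 0.971 to 0.972 between groups. The probe set of Mn1 itself gave 4.49, 4.12 and 4.44 in Mn1wt and 4.21, 4.12 and 4.07 in Mn1null, close to the filter level of 4.07, with overlap and a limma adjusted p of 0.139. The sources used here do not say where it lies relative to the deleted part, so it checks nothing. The bacterial labelling controls were lower in Mn1null by 0.85 at their 5′ probe sets (7.21 to 7.41 in Mn1wt, 6.42 to 6.53 in Mn1null) and by 0.30 at their 3′ probe sets, and the part of this in the results was not tested. For the label of bone marrow cells 10 genes were read, and all had values above the filter, a low limit that cannot test the label. Of these, 4 rose, 3 fell and 3 did not pass. The leukocyte gene Ptprc read 11.54 and 11.57 in Mn1wt and Mn1null. Hoxa9, a gene of the MLL-AF9 program, read 12.26 and 11.95.

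The primary granule genes did not move as a block when Mn1 was deleted. Cst7 rose 11.8-fold and Nkg7 3.07-fold, Mpo rose 1.21-fold, Prtn3, Ctsg and Serpinb1a fell by 0.27 to 0.53 log2 units, and Elane and Ms4a3 did not pass. In counts, 3 probe sets rose, 4 fell and 2 did not pass, which is 77.8% passing beside 41.6% of all probe sets tested. The top 2% of probe sets by the higher group mean held 6 of the 9, and there 498 of 901 passed. The median SD was 0.036 in that top 2% and 0.097 over all tested, so the shares over all are not matched for signal. Of the 9, 2 differed at least 2-fold, beside 5.08% of all. The groups did not overlap in 8 of the 9 probe sets, beside 52.3% of all. The median difference of the 9 was -0.093, beside -0.0089 over all probe sets tested, and 2 of the 9 read the same gene.

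**Figure D1:**
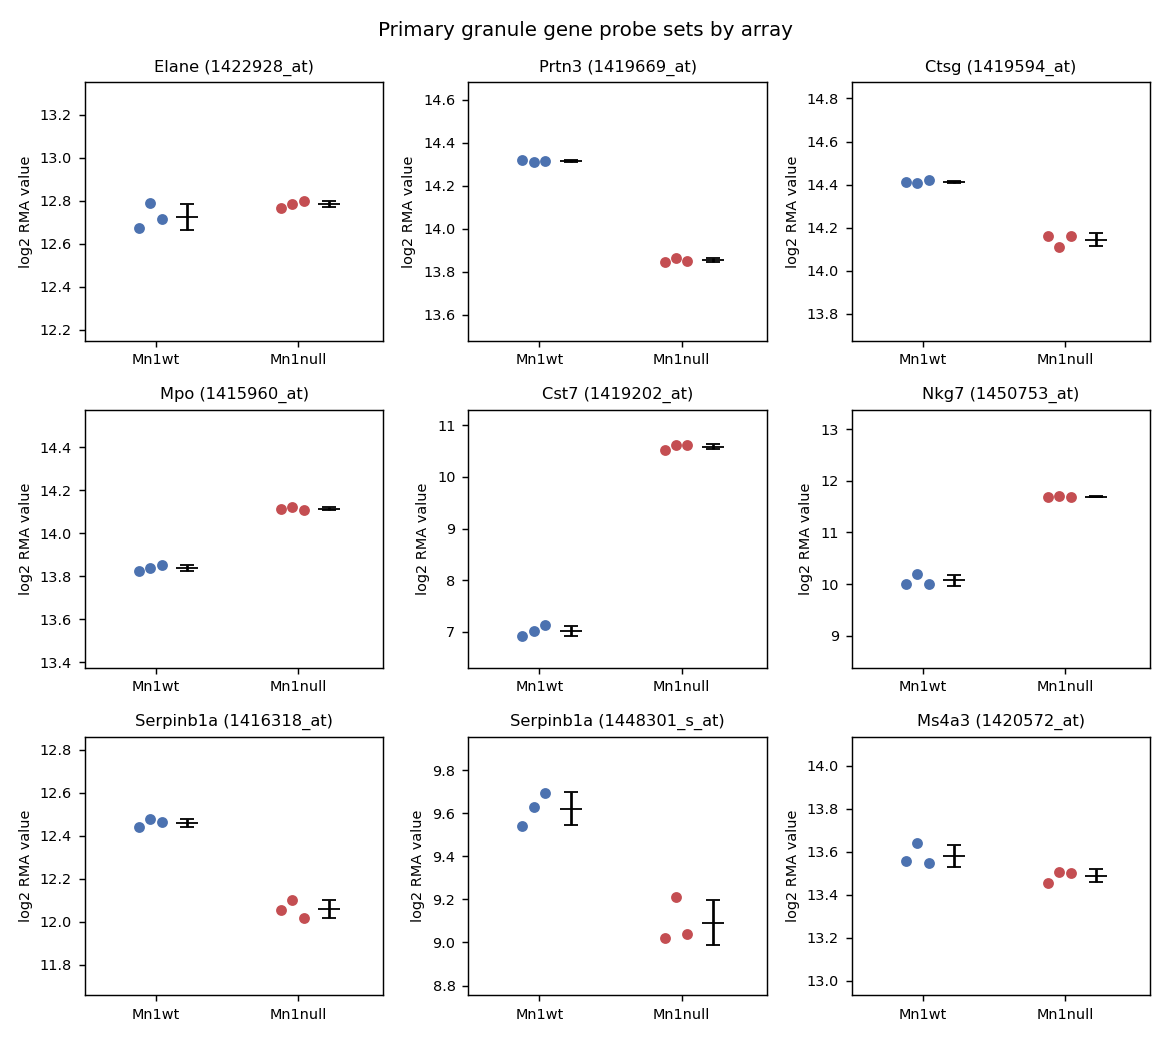
Log2 RMA value of each of the 9 probe sets on each array, with 3 Mn1wt arrays in blue, 3 Mn1null arrays in red, and the mean with its SD in black beside them. Each panel has its own axis, and those of Cst7 and Nkg7 span a wider range; only the panel of Elane shows groups that overlap.

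Of the serine proteases, Prtn3 and Ctsg fell and Elane did not pass. Elane encodes neutrophil elastase, which cleaves elastin and bacterial outer membrane proteins. It gave 12.67, 12.79 and 12.71 in Mn1wt and 12.77, 12.79 and 12.80 in Mn1null. The groups overlapped through Mn1wt replicate 2, and Mn1null was higher by 0.059, with a 95% interval from -0.068 to 0.19, which did not pass (limma adjusted p = 0.433). A difference of 0.19 log2 units is the upper bound of that interval.

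Prtn3 encodes proteinase 3, an elastase-like protease and the target of autoantibodies in granulomatosis with polyangiitis. Its values were 14.32, 14.31 and 14.31 in Mn1wt and 13.84, 13.86 and 13.85 in Mn1null. All Mn1null arrays were lower, and the SD within a group was 0.0040 in Mn1wt and 0.0095 in Mn1null. Prtn3 fell by 0.46 ± 0.0469 (SE, n = 3 each; limma adjusted p = 2.51e-04), a 1.38-fold difference. The change of Prtn3 relative to Elane, taken within each array, was -0.52, and the groups did not overlap. The two-sided exact permutation p was 0.10, the smallest that 3 against 3 arrays can give, and 0.10 after adjustment over the 2 pairs compared. These 2 pairs were not planned comparisons. Once groups are apart no other p is possible, so it adds no support. The ETS, MYB and TATA letters described above stand in the same order in both promoters, and their part in the results of these genes was not tested.

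Ctsg encodes cathepsin G, a chymotrypsin-like protease of neutrophils and monocytes. It gave 14.41, 14.41 and 14.42 in Mn1wt and 14.16, 14.11 and 14.16 in Mn1null. The groups were apart, and Ctsg fell by 0.27 ± 0.0486 (SE; limma adjusted p = 0.00364), a 1.21-fold difference. Its signal lay close to the top of the scale in both groups, as described further on.

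Mpo encodes myeloperoxidase, the haem enzyme that makes hypochlorous acid from hydrogen peroxide. Its values were 13.82, 13.84 and 13.85 in Mn1wt and 14.11, 14.12 and 14.11 in Mn1null. Every Mn1null array was higher, and Mpo rose by 0.28 ± 0.0473 (SE; limma adjusted p = 0.00296). In size this is close to the fall of Ctsg, with the opposite sign.

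The inhibitors also went in opposite directions. Cst7 encodes cystatin F, a cysteine protease inhibitor that is directed to granules and lysosomes and acts on cathepsin C. It gave 6.93, 7.02 and 7.13 in Mn1wt and 10.53, 10.61 and 10.62 in Mn1null. No other member had a difference near this size: Cst7 rose by 3.57 ± 0.0678 (SE; limma adjusted p = 1.54e-07), or 11.8-fold, from the 68.3 percentile of all probe sets to the 93.4 percentile. Serpinb1a encodes a cytosolic serpin that inactivates elastase, proteinase 3 and cathepsin G. Its brighter probe set gave 12.44, 12.48 and 12.46 in Mn1wt and 12.05, 12.10 and 12.02 in Mn1null, a fall by 0.40 ± 0.0508 (SE; limma adjusted p = 6.81e-04). The other, dimmer one has the suffix s_at, which is given to probe sets whose probes match more than 1 transcript, and read 9.54, 9.63 and 9.70 in Mn1wt and 9.02, 9.21 and 9.04 in Mn1null. It fell by 0.53 ± 0.0731 (SE; limma adjusted p = 0.00103), so both probe sets of Serpinb1a fell and neither overlapped between groups.

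The membrane proteins completed the group. Nkg7 encodes a small membrane protein of cytotoxic and myeloid granules that is needed for full degranulation of killer cells. It gave 10.01, 10.20 and 10.01 in Mn1wt and 11.68, 11.70 and 11.69 in Mn1null. The Mn1null arrays (SD 0.0115) lay far above those of Mn1wt (SD 0.109), and Nkg7 rose by 1.62 ± 0.0669 (SE; limma adjusted p = 3.95e-06), or 3.07-fold. Ms4a3 encodes a membrane protein of the MS4A family whose expression marks granulocyte-monocyte progenitors. Its values were 13.56, 13.64 and 13.55 in Mn1wt and 13.46, 13.51 and 13.50 in Mn1null. The groups were apart by a narrow margin, and the interval of the difference, -0.093, ran from -0.22 to 0.034, which did not pass (limma adjusted p = 0.216). With an intensity trend and robust variance estimation the same difference passed (limma adjusted p = 0.0159).

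**Figure D2:**
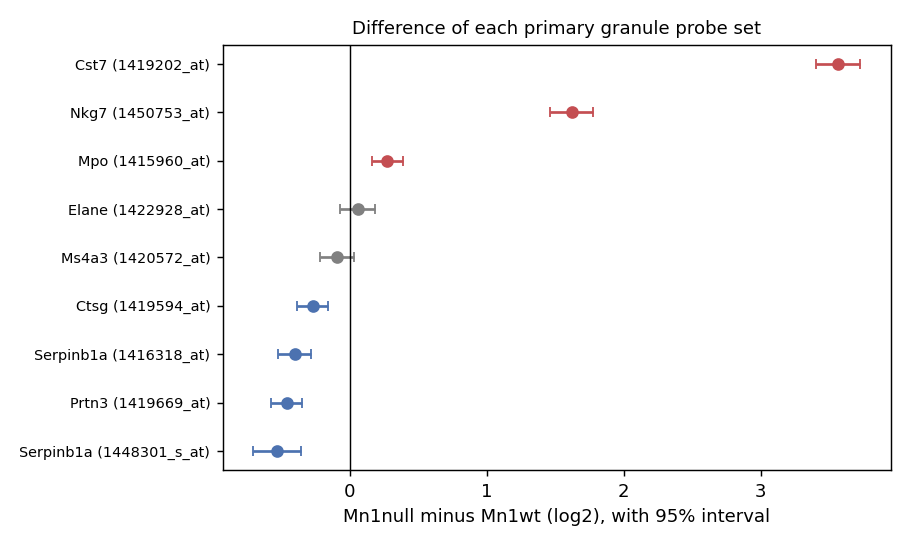
Difference between group means, Mn1null minus Mn1wt, on the log2 scale for the 9 probe sets, with 95% intervals from the limma model; red passed upward, blue passed downward and grey did not pass. Cst7 at 3.57 and Nkg7 at 1.62 stand apart, and the other 7 probe sets lie between -0.53 and 0.28.

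Several members were among the brightest probe sets of the array. The highest group mean of any probe set was 14.86 in Mn1wt and 15.02 in Mn1null. Ctsg lay 0.45 and Prtn3 0.55 log2 units under it in Mn1wt, and 0.87 and 1.16 under it in Mn1null. Mpo lay 1.02 and 0.90 under it, and Ms4a3 1.28 and 1.53. These 4 genes stood in the top 1% of probe sets (450 probe sets, with the higher of both group means at 12.96 or more). Elane (2.14 and 2.23 under the highest) and the brighter probe set of Serpinb1a (2.40 and 2.96) stood just under that limit, and in the top 2%. Nkg7 reached the 97.1 percentile in Mn1null. A scanner has a ceiling and RMA combines several probes, so whether single probes were saturated cannot be read from these values.

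Differences of at least 2-fold occurred among bright probe sets, but not among the very brightest. In the top 2% the median absolute difference was 0.18, the largest was 7.03, and 27 of 901 probe sets passed with at least 2-fold. In the top 1%, 46.2% passed (16.9% higher, 29.3% lower), the median was 0.14, the largest 4.33, and 7 probe sets passed with at least 2-fold. In the top 0.5%, which held Mpo, Ctsg and Prtn3, the median was 0.080, the largest difference was 0.72 and 0 reached 2-fold (60 of 225 passed limma's test at any size). Over all tested probe sets the median was 0.18 and the largest 7.03. Prtn3 differed by -0.46, and both members that changed at least 2-fold, Cst7 and Nkg7, lay below the top 2% in both groups. The part of saturation in the differences of Prtn3, Ctsg, Mpo and Ms4a3 was not tested.

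**Figure D3:**
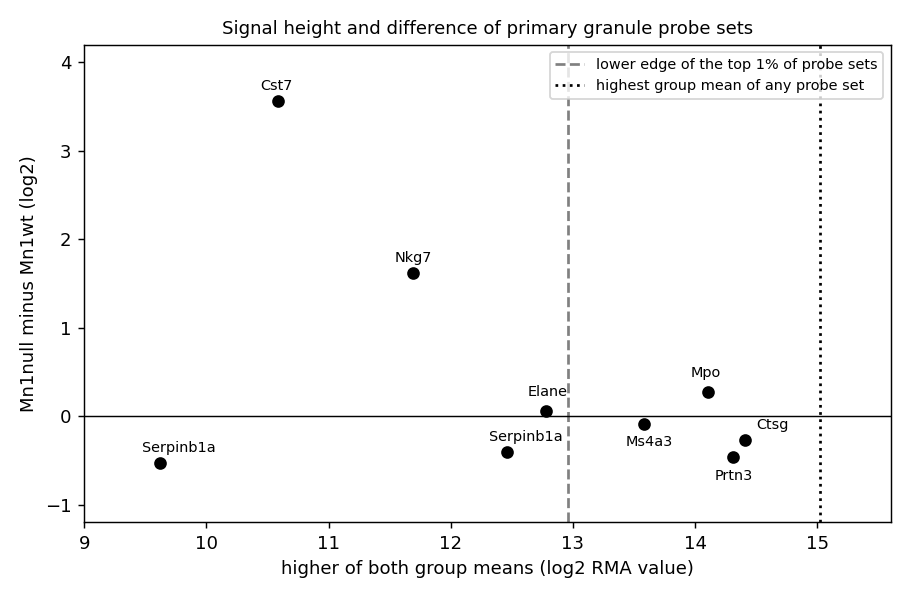
Difference between groups (log2, vertical) against the higher of both group means (log2 RMA value, horizontal) for the 9 probe sets, with the lower edge of the top 1% of probe sets at 12.96 dashed and the highest group mean, 15.02, dotted. Mpo, Ctsg, Prtn3 and Ms4a3 lie to the right of the dashed line with differences between -0.46 and 0.28, while Cst7 and Nkg7 lie well to its left.

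Genes listed from general knowledge as coding for other primary granule proteins also moved both ways. Where each protein is stored was not checked. Of 21 listed, 16 had a tested probe set; 9 rose, 4 fell and 3 did not pass. Their median was 0.27 beside -0.0053 over 14680 genes, of which 22% rose and 24.1% fell. Ccl6, a chemokine gene, rose by 1.59 ± 0.0526 (SE) and Man2b1, a lysosomal mannosidase, by 1.39 ± 0.0556, though by 0.32 on its other probe set and 0.86 with the mean of both. The lysozyme genes Lyz1 and Lyz2 fell by 1.29 ± 0.0538 and 1.34 ± 0.0659; they are close paralogs that a probe may not tell apart. The adjusted p of limma ranged from 1.51e-06 (Ccl6) to 8.84e-06 (Lyz2) among these 4.

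Among 23 genes of protease processing, storage and granule formation, 8 rose, 5 fell and 10 did not pass (median 0.051). Unc13d, the priming factor of granule exocytosis, rose by 1.57 ± 0.0549 (SE), and the large Rab GTPase gene Rab44 by 1.10 ± 0.0511. The cathepsin genes Ctsl and Ctsh, cysteine proteases of the same family as cathepsin C, fell by 0.98 ± 0.0531 and 1.08 ± 0.0753. The next genes of this list were named after their values were seen. Ctsc, the cathepsin C gene, rose from 11.61 ± 0.0614 to 12.20 ± 0.0480 (SD, n = 3 each, limma adjusted p = 2.17e-04). Another of its probe sets gave 0.63 and the remaining one, near the filter level, gave 0.068 and did not pass. Srgn, the serglycin gene, rose by 0.23 and Calr, a chaperone that binds the myeloperoxidase precursor, by 0.30 (limma adjusted p = 0.0113 and 0.00761). Canx and Pdia3, listed beside Calr, did not pass, with 0.12 and 0.027 (limma adjusted p = 0.138 and 0.715). Another probe set of Canx rose by 0.36 and another of Pdia3 fell by 0.26. Cst7, the inhibitor, and Ctsc, its target, were thus both higher in Mn1null, by 3.57 and 0.59.

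Inhibitors of granule proteases other than the members were measured for 13 of 20 listed genes, and 10 were tested, of which 4 rose, 3 fell and 3 did not pass (median 0.0063; with a filter at the 50th percentile 2 rose). The list, from general knowledge, mixes inhibitors of cysteine and of serine proteases, and the targets were not checked. Stfa2l1, a stefin-like gene, rose by 2.07 ± 0.0891 (SE) and Cst3, which encodes cystatin C, by 0.41 ± 0.0546. Serpinb6a, a serpin whose human counterpart inhibits cathepsin G, fell by 1.96 ± 0.0709, and Slpi, the secretory inhibitor of elastase and cathepsin G, by 0.89 ± 0.0626.

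Of 14 tested transcription factors listed from general knowledge for primary granule genes, 6 rose, 6 fell and 2 did not pass (median 0.17). The action of each on these genes was not checked. Gfi1b rose by 1.69 ± 0.0658 (SE) and Cebpa, the C/EBP factor of early granulocyte commitment, by 0.93 ± 0.0579. Irf8, a factor of the monocyte fate, fell by 1.79 ± 0.0781 and Cebpd by 0.81 ± 0.0639. Myb and Spi1, the genes of MYB and PU.1, were picked out after the promoter letters had been seen. Myb rose by 0.23 (limma adjusted p = 0.00859), with 0.51 and 0.25 on other probe sets that also passed, and Spi1 gave 9.57 ± 0.0980 and 9.76 ± 0.0556 (SD) and did not pass (limma adjusted p = 0.0587).

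Genes around the protease loci moved both ways, as did genes over the whole array (22% of 14680 rose and 24.1% fell). Of the 16 tested genes nearest to Elane, Prtn3 and Prss57, 4 rose, 3 fell and 9 did not pass (median -0.020). Plppr3, the gene directly before Prtn3, fell by 0.64 ± 0.0564 (SE), and Wdr18, beyond Elane, by 1.10 ± 0.0655. Other probe sets of Wdr18 that were tested fell by less, 0.34 and 0.50. Ctsg lies in the chymase locus, a cluster of related mast cell proteases and granzymes. Of the 12 tested genes around it, 4 rose, 2 fell and 6 did not pass (median 0.021). Mcpt8, a basophil protease gene directly beside Ctsg, rose by 0.55 ± 0.0562 (SE) from 11.20 to 11.75, and Gzmb, the granzyme B gene and the next tested gene on its other side, by 2.84 ± 0.0494. The change of Ctsg relative to Mcpt8, also not a planned comparison, was -0.82, without overlap. Its two-sided exact permutation p was 0.10, again the smallest possible, and adds no support. Of 14 listed chymase locus proteases 12 were measured, 9 of them lay under the filter, and of the 3 tested Mcpt8 and Gzmb rose and Cma1 did not pass; without a filter 5 rose. Proteases of this locus are alike in sequence, and cross-hybridisation was not checked.

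**Figure D4:**
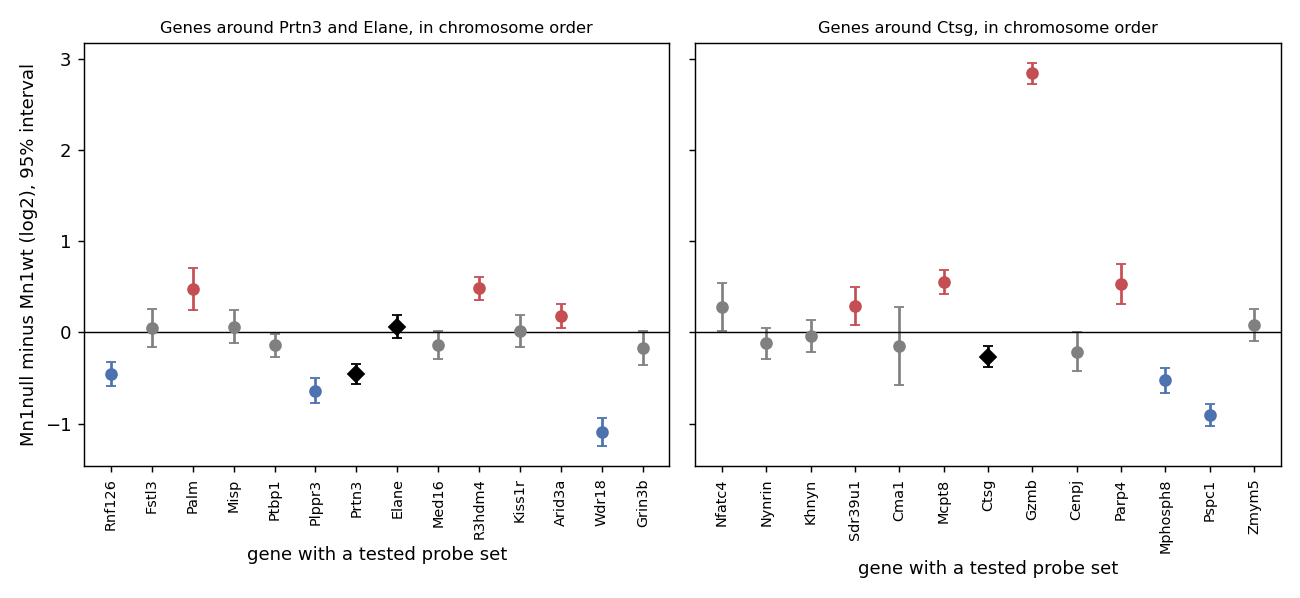
Difference between groups (log2, with 95% limma intervals) for Prtn3, Elane and Ctsg (black diamonds) and for the 6 nearest tested genes on either side, in RefSeq order; red rose, blue fell and grey did not pass. Prtn3 and Elane stand side by side at -0.46 and 0.059, and Ctsg at -0.27 is drawn between Mcpt8 at 0.55 and Gzmb at 2.84.

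For the members that changed at least 2-fold, Cst7 and Nkg7, the genes with the most similar values over the arrays were sought. Likeness was the Euclidean distance over the 6 arrays after each probe set was centred on its own mean. For Cst7 the nearest 3 included Nrp1 (distance 0.114), a semaphorin and VEGF receptor, and Prg2 (0.153), the eosinophil major basic protein, with differences of 3.55 and 3.51. For Nkg7 they were Gfi1b (0.119), Ccl6 (0.121) and Rsu1 (0.136), with 1.69, 1.59 and 1.63. Nrp1 and Rsu1 each had another probe set with a smaller rise, of 0.71 and 0.20. With 2 groups this distance is set mostly by the size of the group difference.

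Cst7 and Nkg7 are known from cytotoxic lymphocytes and other granule-bearing cells as well, so markers of other cell types were read beside them. In bulk samples, more cells of a type and more RNA per cell cannot be told apart. Of 14 T and NK cell markers measured, 5 lay under the filter (Cd3g, Cd247, Klrd1, Gzma and Tbx21), and of the 9 tested Klrk1 rose by 0.19 and 8 did not pass. Their summed linear signal was 411 to 413 in Mn1wt and 411 to 441 in Mn1null, and the perforin gene Prf1 read 5.39 and 5.34. The brightest of these markers, Cd8a, read 6.40 and 6.43, so the sum rests on dim values. The granzyme B gene Gzmb, which rose by 2.84, was not in this list. Of 11 mast cell and basophil markers tested, 7 rose and 1, Kit, fell by 0.17 (over all genes 22% rose and 24.1% fell). The mast cell protease genes Tpsb2, Tpsab1 and Cma1 did not pass, with group means between 4.22 and 5.07. The mast cell protease gene Mcpt4 and the receptor gene Mrgprb1 lay under the filter. The summed signal of these markers was 5183 to 5381 in Mn1wt and 16970 to 17470 in Mn1null. Eosinophil markers rose in 5 of 5 tested, from 253 to 276 in Mn1wt to 1847 to 1951 in Mn1null, while Ccr3 lay under the filter.

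Mature neutrophil markers rose in 9 of 12 and fell in 2 (over all genes 22% rose and 24.1% fell). Their summed signal was 4015 to 4278 in Mn1wt and 8315 to 8643 in Mn1null. Some of the rises were at dim values in Mn1wt: Cxcr2 read 4.84, Itgb2l 5.27, Camp 5.64 and Ltf 5.79. The other probe sets of Itgb2l did not pass. The 2 that fell were Mmp8, by 4.53, and Cd177, by 0.97. The fall of Mmp8 was larger than any of the 9 rises, of which the largest was that of Ngp, by 3.28. Monocyte markers fell in 8 of 10 tested and 0 rose by limma, and 1 was higher at an unadjusted p under 0.05. Their summed signal was 8981 to 9608 in Mn1wt and 1050 to 1115 in Mn1null. F13a1, the brightest of them in Mn1wt, fell from 12.40 to 6.71 and weighs most in the sum of that group. B cell markers, 6 of them tested, gave 1 rise and 1 fall and a summed signal of 286 to 297 in Mn1wt and 268 to 303 in Mn1null. The mast cell, basophil, eosinophil, mature neutrophil and monocyte markers moved between the same arrays as the primary granule genes, and their part in the differences of the members was not tested.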

How the data were processed

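RNA of 6 samples was read on 1-colour Affymetrix mouse arrays. The values deposited by the authors are on a log2 scale, 1 per probe set, and the submitters' processing notes name RMA. That method corrects background, makes the arrays' distributions equal and combines the probes of a set, so overall differences in RNA amount are lost and low signals are compressed. The sources used here do not give its version, and scanner files were not used here.

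Of 45101 probe sets, 64 controls were left out of the tests. Among the other 45037, the platform annotation named 1 gene for 34945, several for 932 and was silent on 9160. Probe sets with a mean over all arrays under the 30th percentile (log2 4.07) were left out, leaving 31526. Groups were taken from the sample titles. The test was limma 3.58.1 (lmFit, eBayes; R 4.3.3) with no block, with 2-sided p-values and Benjamini-Hochberg adjustment over all probe sets tested at a threshold of 0.05. The steps were tested on simulated data. A gene of a list was read by its 1-gene probe set with the highest mean.

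Members, lists, markers and the alternatives were chosen with earlier results of these data known. The rule for named genes takes all members, Mn1, from each list the 2 genes of smallest p among those called in either direction, the 3 probe sets of other genes most like each member that changed at least 2-fold, and the 6 tested genes on either side of the protease genes. Genes named outside it are said to be so, and 1 gene that the rule names is not reported here. Precision is limited by the number of arrays. The SD of a member probe set lay between 0.0040 and 0.11. Alternatives were other filters, other rules for probe sets, other scalings, an intensity trend with robust estimation, array weights, a replicate block, a stricter threshold and each array left out.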

Additional observations from a re-analysis of the deposited data

How the results depend on the processing

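Under the alternatives, which covered filters, rules for probe sets, scalings, eBayes options, array weights, leaving out single arrays and a threshold of 0.01, 141 of 142 recomputed differences of member probe sets kept their direction and their side of the threshold. The exception was Ms4a3, whose difference of -0.093 passed with an intensity trend and robust eBayes (adjusted p = 0.0159). Cst7 ranged from 3.52 to 3.62, Nkg7 from 1.59 to 1.68, Mpo from 0.26 to 0.28, Prtn3 from -0.48 to -0.46 and Elane from 0.033 to 0.092. With 1 probe set per gene, 3413 were called higher and 3757 lower, and with the mean of a gene's probe sets 3288 and 3565, beside 6098 and 7003 in the comparison of all probe sets; both alternatives test fewer features. Of the list counts, rises among chymase locus proteases went to 5 without a filter and among the inhibitors to 2 with a filter at the 50th percentile.

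Deviations of same-numbered arrays from their group means correlated at -0.047, 0.099 and 0.032. With so few arrays, and a spread that may be technical only, these values cannot show whether the replicate numbers pair the samples. With the replicate block 5735 probe sets were called higher and 6536 lower, and it changed no call of a member. The height of the signals of Ctsg, Prtn3, Mpo and Ms4a3 and the number of arrays limit what can be read from them.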
